A study of Mus musculus with 12 samples.

Results

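The transcripts described here are 19 RIKEN and Gm genes of primary mouse hepatocytes whose signal differed between untreated cells and cells kept for 4 h with TGF-β1. They were chosen by a rule on the arrays: the probe set stands for exactly 1 gene symbol, the symbol ends in Rik or is Gm followed by digits, the mean of the 3 differences between 4 h and control of the same replicate number is at least 0.35 on the log2 scale in either direction, and all 3 differences have the same sign. Of 35556 probe sets, 21789 had 1 symbol and 1318 of these a RIKEN or Gm name. The rule kept 19 of the 1318, each a different gene, 9 of them higher and 10 lower at 4 h. With each array centred on its median, 18 met it, 6 higher and 12 lower. Because the difference at 4 h chose the transcripts, it is given below as a description and without a test.

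The study followed the transcription of several cell types over time after TGF-β1. The 12 arrays used here (Affymetrix Mouse Gene 1.0 ST) come from hepatocytes of male C57BL/6 mice, isolated with collagenase, plated on collagen in HepatoZYME-SFM and cultured for 24 h after the medium was renewed. Each of 4 groups has 3 arrays: the control, which received no cytokine, and cells stimulated for 20 min, for 2 h or for 4 h. The cytokine was human TGF-β1, made recombinantly and given at 1 ng/mL. Untreated cells were measured as the control only, so treatment and the time since the last medium exchange change together across the groups and cannot be told apart. The study calls the replicates biological, and the labels do not say whether a replicate number stands for 1 preparation of cells or how many mice were pooled. Values are log2 signals after robust multi-array averaging (RMA), so a difference of 1 is a 2-fold change. Array medians lay between 6.82 and 6.93. Replicate 1 stood apart from the others at every time point. Within and between groups, its arrays correlated with those of replicates 2 and 3 at 0.975 to 0.987 across probe sets. Arrays of replicates 2 and 3 correlated with each other at 0.996 to 0.999, again within and between groups. The study's methods mention a strong batch effect in these arrays, and comparisons below are therefore made within replicate numbers.

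RIKEN and Gm names are placeholders. They were given to mouse transcripts known from cDNA collections or from gene prediction before a function was known, and they cover long noncoding RNAs (lncRNAs), pseudogenes and protein coding genes that were never renamed. LncRNAs are transcribed and spliced much like messenger RNAs but encode no known protein, and many lie antisense to a coding gene or start beside its promoter. TGF-β1 binds a pair of receptor kinases that phosphorylate SMAD proteins, which enter the nucleus and act on their target genes together with other factors; in hepatocytes the cytokine is known for growth arrest, cell death and a loss of epithelial features.

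By the RefSeq annotation of GRCm38.p6, 10 of the 19 were lncRNAs (6 higher, 4 lower), 7 protein coding genes (2 higher, 5 lower) and 2 transcribed pseudogenes (1 in each direction). Gm340 was matched to Lcor, which lists it as a synonym, and the others through their Entrez ID. Among all 1318 RIKEN and Gm probe sets, 560 were lncRNAs and 554 protein coding, and the rule kept 1.79% of the former and, with Gm340 not counted, 1.08% of the latter. Of all 21789 probe sets with 1 symbol, the rule would keep 4.57%, 1.57% higher and 3% lower at 4 h. It kept 1.44% of the RIKEN and Gm probe sets, 0.683% higher and 0.759% lower, and would keep 4.77% of those with another symbol. RIKEN and Gm probe sets were dimmer, with a median level of 6.18 against 7.34 for the rest. Among the 325 of them at or above the median level of all probe sets the rule kept 14 (4.31%), and among the 10570 others at that level 851 (8.05%). Without replicate 1, which leaves 2 pairs to share a sign, 34 RIKEN and Gm probe sets met the rule, 19 higher and 15 lower, with 17 of the 19 members among them (9030619P08Rik and 9330175E14Rik did not), and without replicate 3, 29 did, with 17 of the 19 (2610008E11Rik and Gm6498 did not).

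4833422C13Rik, a lncRNA without a known role, had the largest difference of the 19 and ranked 9 by size among all 21789 probe sets. Its gene spans chromosome 13, 91701665 to 91741872, on the minus strand of GRCm38.p6. In untreated cells its log2 signal was 9.42, 9.94 and 10.05 in replicates 1 to 3, above the level of 82.0% of probe sets. At 20 min it was 9.40, 10.04 and 10.12, at 2 h 10.31, 10.18 and 11.08, and at 4 h 10.94, 11.40 and 11.26. Each 20 min array lay close to its own control (-0.02, 0.10 and 0.07), and every 4 h array lay above every untreated one. The mean paired difference from control was 0.05 ± 0.06 (SD, n = 3) at 20 min, 0.72 ± 0.43 at 2 h and 1.39 ± 0.16 at 4 h. The replicates took different paths to a similar end. At 2 h, replicates 1 and 3 stood 0.89 and 1.04 above their controls and replicate 2 only 0.23. From 2 h to 4 h, replicate 2 then gained 1.22, replicate 1 0.63 and replicate 3 0.17.

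**Figure D1:**
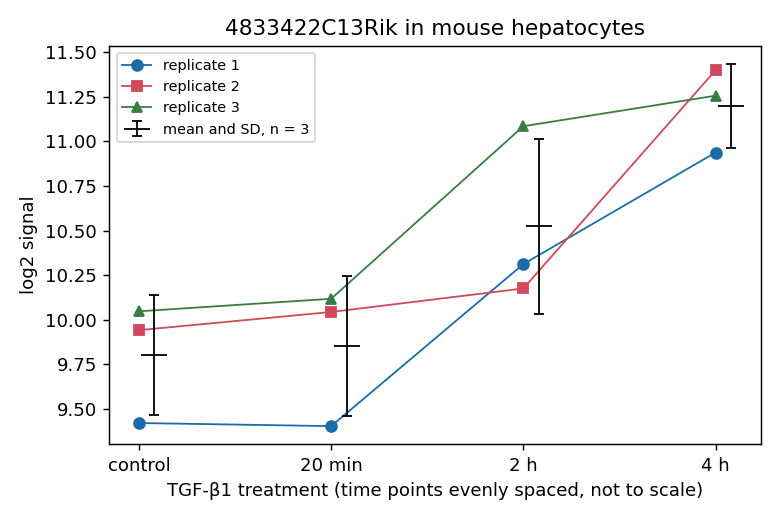
Log2 signal of 4833422C13Rik (vertical axis) in the 4 groups from control to 4 h, evenly spaced and not to scale. Coloured points and lines are the 3 replicates, and black bars are the mean and SD of 3 arrays. The 20 min arrays sit at the level of the controls, the 2 h arrays spread from 10.18 to 11.08, and the 4 h arrays lie between 10.94 and 11.40, above all controls.

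The sequence around the start of 4833422C13Rik is shown because it is the region where a factor acting on this lncRNA from its promoter could bind. It covers 250 bases before and 50 bases after the start in RefSeq, chr13:91741823-91742122 of GRCm38.p6, read on the minus strand. Capitals mark GTCTG, the reverse complement of the SMAD box CAGAC.
4833422C13Rik promoter: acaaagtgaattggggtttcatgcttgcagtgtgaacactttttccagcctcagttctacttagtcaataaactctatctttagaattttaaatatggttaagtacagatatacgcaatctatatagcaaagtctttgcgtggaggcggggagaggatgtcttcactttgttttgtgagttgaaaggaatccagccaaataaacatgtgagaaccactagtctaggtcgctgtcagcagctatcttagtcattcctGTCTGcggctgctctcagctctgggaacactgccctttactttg
The match begins at base 257 of the window, 7 bases after the start. So short a motif is common: searched on both strands, CAGAC was in 49.6% of the 32851 promoter windows of the same length in the reference table. The 16 members with a window had 18 windows, and 12 of these windows, from 10 members, held it. The SMAD palindrome GTCTAGAC (0.213% of all windows), the AP-1 site TGACTCA (5.20%) and the EGR1 site GCGGGGGCG (2.91%) were in none of the members' windows, and the FoxO site GTAAACA (3.65%) was in that of Gm4788.

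4833422C13Rik overlaps a coding gene at each end, both on the opposite strand. Both stayed near their control level. Acot12, an acyl-CoA thioesterase, shares 547 bases with it and differed by 0.03 ± 0.03 (SD, n = 3) between 4 h and control. Ssbp2, a single-stranded DNA binding protein, shares 4511 bases and differed by -0.04 ± 0.09. Over the 12 arrays, after the mean of each replicate number was subtracted, the probe sets most like 4833422C13Rik were Zfp697, a zinc finger protein (Pearson r = 0.991), Pmepa1, a membrane protein that binds SMADs (r = 0.984), Lnx2, a ubiquitin ligase (r = 0.982), Runx1, a transcription factor (r = 0.978), and Ap1g1, an adaptor subunit of vesicle transport (r = 0.973). These are the 5 highest of 21788 correlations over the same 12 arrays and are given as a description. Zfp697 stood 0.03, 0.46 and 0.92 above control at 20 min, 2 h and 4 h, and Pmepa1 0.25, 1.21 and 2.78. Runx1 showed the same order of values at a smaller size, 0.00, 0.25 and 0.44. Among the members, 1700048O20Rik was nearest (r = 0.905), followed by 9330175E14Rik (r = 0.878). The rule chose the higher members by a rise from control to 4 h in these arrays, which made such likeness probable in advance.

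The other lncRNAs that were higher at 4 h stood 0.36 to 0.47 above control on average, against 1.39 for 4833422C13Rik. Gm10658 (chromosome 9, 57056897 to 57071966), which overlaps the phosphatase gene Ptpn9 and lies 25 bases from the corepressor gene Sin3a, had log2 signals of 6.42, 6.20 and 6.17 in untreated cells, 6.37, 6.14 and 6.12 at 20 min, 6.37, 6.07 and 6.56 at 2 h and 6.45, 6.91 and 6.83 at 4 h. Its mean difference of 0.47 ± 0.38 (SD, n = 3) rested on replicates 2 and 3, since replicate 1 differed by 0.04. A second probe set of Gm10658 stood 0.17, 0.23 and 0.38 above control at 4 h, below the limit of the rule on average (0.26).

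1810034E14Rik (chromosome 13, 64248700 to 64268145) runs within the phosphatase gene Cdc14b on the opposite strand. Its signal was 5.83, 6.10 and 6.18 in untreated cells, 6.00, 6.19 and 6.38 at 20 min, 5.91, 6.57 and 6.12 at 2 h and 6.27, 6.76 and 6.45 at 4 h. It was dim throughout, and at 2 h replicate 2 was high while replicate 3 lay below its control, so the course was uneven before 4 h. Cdc14b itself stood 0.37 higher at 4 h and met the same rule.

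1700048O20Rik (chromosome 9, 121937275 to 121947016), which lies 20970 bases from the bile acid enzyme gene Cyp8b1, had signals of 6.89, 8.09 and 7.80 in untreated cells, 7.05, 8.06 and 8.13 at 20 min, 7.36, 8.09 and 8.25 at 2 h and 7.44, 8.41 and 8.29 at 4 h. Replicate 1 lay about 1 below the others at each time point, so the groups overlapped although each pair differed by 0.32 to 0.55. Cyp8b1 differed by 0.08. 1110002L01Rik (chromosome 12, 3403883 to 3426747) starts 110 bases from the chromatin gene Asxl2 and had signals of 8.46, 8.84 and 8.81 in untreated cells, 8.02, 8.96 and 8.88 at 20 min, 8.17, 9.23 and 8.91 at 2 h and 8.60, 9.47 and 9.19 at 4 h. Its replicate 1 dropped below control at 20 min and 2 h and was 0.14 above it at 4 h.

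9330175E14Rik (chromosome 8, 94433127 to 94435103), a short lncRNA that overlaps Nlrc5, an activator of MHC class I genes, over 769 bases, had signals of 6.18, 6.36 and 6.43 in untreated cells and 6.20, 6.48 and 6.46 at 20 min. At 2 h they were 6.37, 6.61 and 6.59 and at 4 h 6.72, 6.66 and 6.68. The course was a small, even step at 2 h in all replicates, followed by a larger one in replicate 1 only, and the 4 h arrays lay above all controls. A second probe set of this lncRNA differed by 0.06 on average at 4 h, with replicate 2 below its control.

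The 3 remaining higher members were 2 coding genes and a pseudogene. 1810062G17Rik (chromosome 3, 36475937 to 36482299), a coding gene next to the annexin gene Anxa5, had signals of 7.32, 7.72 and 7.66 in untreated cells, 7.42, 7.80 and 7.77 at 20 min, 7.23, 8.08 and 7.91 at 2 h and 7.64, 8.31 and 8.09 at 4 h. Gm340 is listed as a synonym of Lcor (chromosome 19, 41482682 to 41596161), a gene that encodes a corepressor of nuclear receptors. Which transcript of that gene this probe set measures was not checked, nor were probe sets named Lcor. Gm340 had 8.16, 8.61 and 8.75 in untreated cells and 8.02, 8.88 and 8.98 at 20 min. At 2 h it had 8.21, 9.01 and 8.93, and at 4 h 8.39, 9.17 and 9.06. In both genes replicate 1 was the dimmest at every time point and had the smallest difference at 4 h. The pseudogene Gm6498 (chromosome 14, 48198716 to 48228413), which lies inside the ubiquitin ligase gene Peli2, had 7.19, 7.19 and 7.10 in untreated cells, 7.27, 7.16 and 7.35 at 20 min, 7.49, 7.28 and 7.29 at 2 h and 7.50, 7.55 and 7.56 at 4 h. Its 4 h values were close together and above all controls (0.37 ± 0.07, SD, n = 3). A further 10 probe sets list Gm6498 with other symbols and differed by -0.011 to -0.006 at 4 h.

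**Figure D2:**
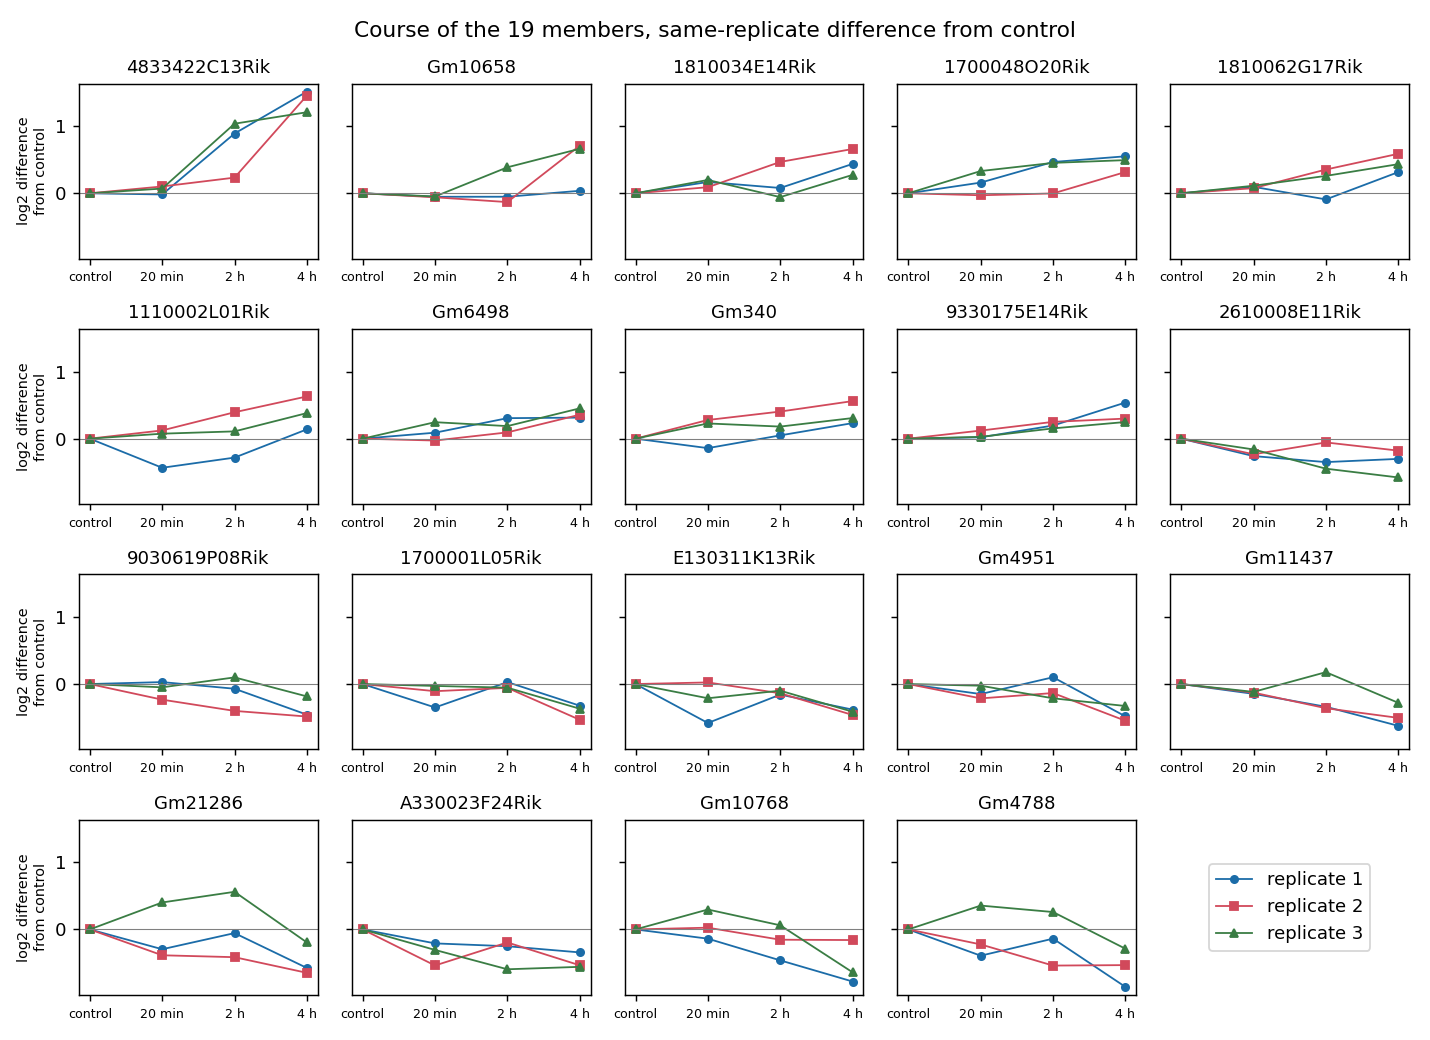
Difference in log2 signal from the control of the same replicate number (vertical axis, the same in all panels) over the 4 groups from control to 4 h (evenly spaced) for the 19 members, with 1 line for each of the 3 replicates. 4833422C13Rik reaches 1.21 to 1.52 at 4 h, and all other members stay between -0.86 and 0.71.

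Among the lncRNAs that were lower at 4 h, A330023F24Rik is the best known, as the host transcript of a miR-29 pair (chromosome 1, 195017399 to 195037908). The miR-29 family binds mRNAs of collagens and other matrix proteins. The mature miRNAs encoded within A330023F24Rik are shown to identify what this transcript carries, from RefSeq (GRCm38.p6), with the seed, bases 2 to 8, in capitals.
mmu-miR-29b-3p: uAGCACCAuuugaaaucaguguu
mmu-miR-29c-3p: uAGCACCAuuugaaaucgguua
These 3p forms share the seed AGCACCA and lie on the same strand as A330023F24Rik. The probe set measures the host RNA and not the mature miRNAs, which were not measured here.

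A330023F24Rik had log2 signals of 7.52, 7.30 and 7.20 in untreated cells, 7.31, 6.76 and 6.89 at 20 min, 7.27, 7.10 and 6.60 at 2 h and 7.18, 6.76 and 6.64 at 4 h. Its mean difference from control was -0.35 ± 0.17 (SD, n = 3) at 20 min, -0.35 ± 0.22 at 2 h and -0.48 ± 0.12 at 4 h. The mean difference at 20 min was the largest in size of the 19 members. All 3 replicates were below their controls at each time point, and the 4 h arrays lay below all untreated ones. A pair of probe sets that list A330023F24Rik with other symbols stood at -0.28 and -0.08. All of these values share the control arrays that chose the member.

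Gm10768 (chromosome 19, 43838803 to 43840845) is a lncRNA that lies 471 bases from Abcc2, the transporter that exports conjugated bilirubin into bile. Its signals were 6.75, 8.17 and 8.23 in untreated cells, 6.61, 8.19 and 8.52 at 20 min, 6.29, 8.01 and 8.29 at 2 h and 5.97, 8.01 and 7.59 at 4 h. Replicate 1 was far below the others throughout and had the largest difference, -0.78, while replicate 2 differed by -0.16. Abcc2 differed by -0.17 ± 0.07 (SD, n = 3). 1700001L05Rik (chromosome 15, 83353847 to 83367297) lies 3472 bases from Arfgap3, a regulator of vesicle transport in the Golgi, and had 8.64, 8.91 and 8.77 in untreated cells, 8.29, 8.81 and 8.74 at 20 min, 8.66, 8.86 and 8.72 at 2 h and 8.31, 8.38 and 8.40 at 4 h. Its mean difference was -0.16 ± 0.17 (SD, n = 3) at 20 min, -0.03 ± 0.05 at 2 h and -0.41 ± 0.11 at 4 h, so that at 2 h it was back near control before it was lowest at 4 h.

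Gm21286 (chromosome 4, 60837364 to 60840702) lies in the region that holds the major urinary protein genes. It had 11.54, 9.39 and 8.94 in untreated cells, 11.24, 9.00 and 9.34 at 20 min, 11.48, 8.98 and 9.50 at 2 h and 10.96, 8.74 and 8.74 at 4 h. Its replicate 1 lay 2.23 above the mean of the others on average, and replicate 3 was above its control until 2 h and below it at 4 h. Another 6 probe sets list Gm21286 with other symbols and stood between -0.30 and -0.06, and near-identical copies in this region may share probes.

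Of the 5 coding genes that were lower at 4 h, 2 belong to families with a known function. Gm4788 (chromosome 1, 139697919 to 139781239) is a gene of the complement factor H family and had the largest lower value of the 19, -0.56 ± 0.29 (SD, n = 3). Its signals were 10.91, 9.76 and 9.44 in untreated cells, 10.52, 9.53 and 9.79 at 20 min, 10.78, 9.22 and 9.69 at 2 h and 10.06, 9.22 and 9.15 at 4 h. Replicate 3 was above its control at 20 min and 2 h, and replicate 1 had the largest difference at 4 h. Cfhr3 of the same family, 36913 bases away, stood 0.38 lower and met the rule. Its mean rested on replicate 1 (-0.77), while replicates 2 and 3 differed by -0.20 and -0.17, and its untreated level was dim (6.81). Gm4951 (chromosome 18, 60212004 to 60248440) belongs to the interferon-inducible GTPases. It had 9.75, 7.97 and 8.06 in untreated cells, 9.61, 7.76 and 8.03 at 20 min, 9.86, 7.84 and 7.85 at 2 h and 9.27, 7.43 and 7.73 at 4 h. Every replicate was lowest at 4 h, and replicate 1 was higher than both others in every group.

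Gm11437 (chromosome 11, 84148361 to 84167476) lies within Acaca, the acetyl-CoA carboxylase of fatty acid synthesis, on the opposite strand. It had 7.22, 6.61 and 6.32 in untreated cells, 7.07, 6.49 and 6.20 at 20 min, 6.88, 6.25 and 6.49 at 2 h and 6.60, 6.11 and 6.04 at 4 h. Both probe sets of Acaca were lower too, at -0.25 ± 0.05 and -0.30 ± 0.02 (SD, n = 3), short of the limit of the rule. E130311K13Rik (chromosome 3, 63914682 to 63929507) had 8.98, 8.52 and 8.60 in untreated cells, 8.40, 8.55 and 8.39 at 20 min, 8.83, 8.38 and 8.50 at 2 h and 8.60, 8.06 and 8.19 at 4 h, with the most even differences of all members at 4 h (-0.42 ± 0.04). 2610008E11Rik (chromosome 10, 79064374 to 79097600) had 8.17, 8.15 and 8.22 in untreated cells, 7.91, 7.92 and 8.06 at 20 min, 7.82, 8.09 and 7.78 at 2 h and 7.86, 7.97 and 7.65 at 4 h. It was below its control in every replicate at each time point.

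The pseudogene 9030619P08Rik (chromosome 15, 75427606 to 75431829) had 7.31, 10.05 and 9.76 in untreated cells, 7.34, 9.82 and 9.71 at 20 min, 7.24, 9.65 and 9.86 at 2 h and 6.86, 9.56 and 9.57 at 4 h. Its replicate 1 minus the mean of the others was -2.56 on average, against a mean difference at 4 h of -0.38. The members just inside the limit of the rule were 2610008E11Rik (-0.3527), 9330175E14Rik (0.3621) and Gm340 (0.3664), and just outside it lay Gm4952 (-0.3481), 4632427E13Rik (-0.3399) and D730003I15Rik (-0.3264).

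**Figure D3:**
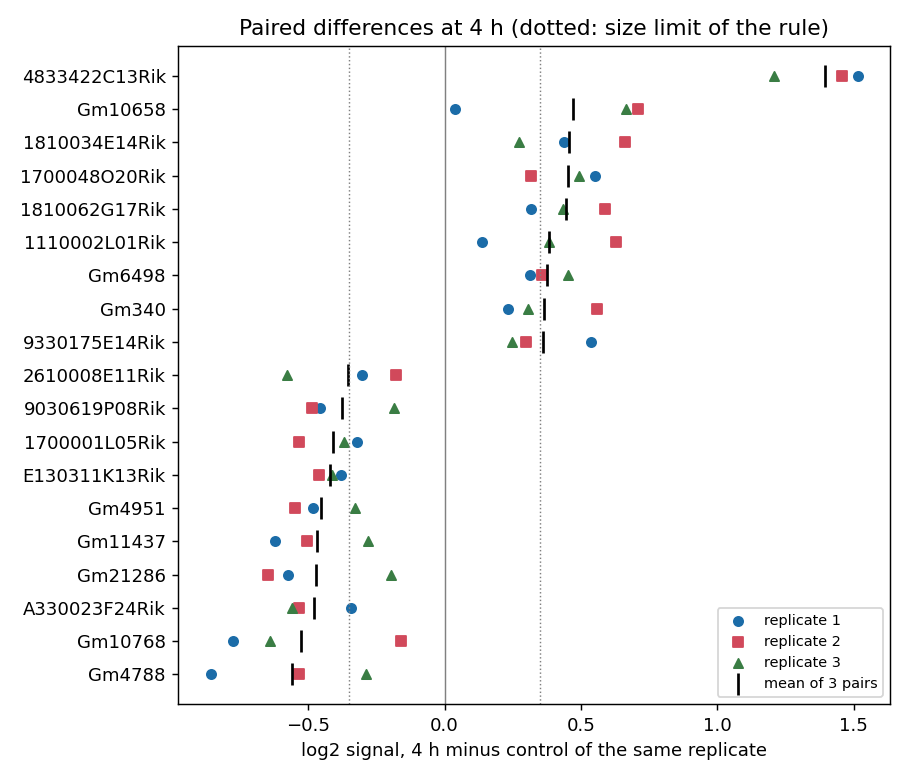
Difference in log2 signal between 4 h and control (horizontal axis) for each of the 19 members, 1 point per replicate pair, with black bars at the mean of 3 pairs and dotted lines at the size limit of 0.35 in both directions. The 3 pairs of a member share their sign by the rule, but single pairs reach from 0.04 (Gm10658, replicate 1) to 1.52 (4833422C13Rik, replicate 1) among the higher members and from -0.16 to -0.86 among the lower ones.

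In all 19 members the mean difference from control was largest in size at 4 h, and in 18 the mean at 2 h lay between those of control and 4 h. At 20 min, 7 of the 9 higher members had a mean above control and 9 of the 10 lower ones a mean below it. At 2 h this was so for 9 of 9 and 9 of 10, the exception being Gm21286 (0.03). These counts share the control arrays with the rule, or the 4 h arrays, and carry no test. The 4 h and control arrays did not overlap in 8 members, against 11% of all probe sets with 1 symbol, which the rule also made more likely for its members.

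The arrays at 20 min and 2 h were not used to choose the members, so the step between them can be tested. limma, fitted to these 6 arrays with a factor for time and a factor for the replicate number, called 0 of the 19 members and 0 of the 21789 probe sets (0%) at an adjusted p under 0.05. At an unadjusted p under 0.05 there were 2 members, against 4.16% of all probe sets and 3.79% of RIKEN and Gm probe sets. The 2 were 4833422C13Rik and Gm10768. 4833422C13Rik stood 0.91, 0.13 and 0.97 higher at 2 h than at 20 min in replicates 1 to 3, an estimate of 0.67 with a standard error of 0.16 (limma, 95% confidence interval 0.30 to 1.04, unadjusted p = 0.0038, adjusted p = 0.977). Gm10768 stood at -0.32, -0.18 and -0.24, an estimate of -0.25 with a standard error of 0.07 (limma, interval -0.41 to -0.08, unadjusted p = 0.00898, adjusted p = 0.977). Both thus fail the correction for all probe sets, while their pairs share a sign.

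By counts, the higher members stood above 20 min at 2 h more often than all probe sets did. The mean at 2 h was above that at 20 min in 9 of 9, against 52.2% of all probe sets, and every pair was above in 4 (4833422C13Rik, 1700048O20Rik, 1110002L01Rik and 9330175E14Rik), against 13.8%. Their median difference was 0.12, and that of all probe sets 0.0047. In the lower members, the mean at 2 h was below that at 20 min in 5 of 10, against 47.8% of all probe sets, every pair was below in 1 (Gm10768), against 10%, and their median difference was -0.02. No list test was made, and the estimates of the 17 other members lay between -0.07 and 0.15.

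**Figure D4:**
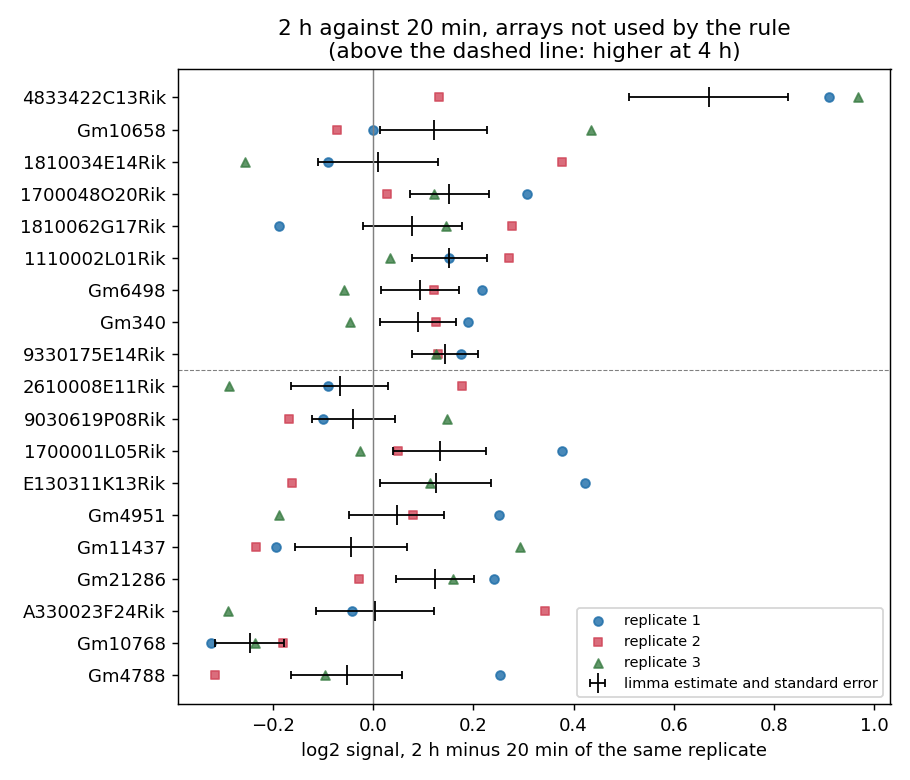
Difference in log2 signal between 2 h and 20 min (horizontal axis) for the 19 members, 1 point per replicate pair, with the limma estimate and its standard error in black and a dashed line between members higher and lower at 4 h. The estimates of the 9 higher members are all above 0, with 4833422C13Rik at 0.67, and those of the 10 lower members fall on both sides of it.

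Neighbouring genes give a second view of these loci. The window and the comparison were chosen after values had been seen. Within 50 kb of 17 members, 50 probe sets of 31 other genes were measured, and 6 of these (12%) met the rule at 4 h, against 4.57% of all probe sets with 1 symbol. That share depends on signal level. For symbols other than RIKEN and Gm it was 8.05% at or above the median level and 1.26% below it. The neighbours were not matched by level, so the 12% is a description only. The 6 are in 4 genes. Nlrc5 supplied 19 of the 50 probe sets and 3 of the 6. For 3 of the 4 the neighbour had the sign of the member: Cdc14b with 1810034E14Rik, Cfhr3 with Gm4788, and Arfgap3 (-0.52) with 1700001L05Rik. Nlrc5 had the opposite sign to 9330175E14Rik: of its 19 probe sets, 17 were lower on average at 4 h and 3 met the rule, with values from -0.41 to 0.04. The probe sets of 1 gene are not independent of each other. Sin3a (-0.06) beside Gm10658, Asxl2 (0.04) beside 1110002L01Rik and Gmps (0.08) beside E130311K13Rik lay near 0. Of the members, 7 overlap a measured gene.

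**Figure D5:**
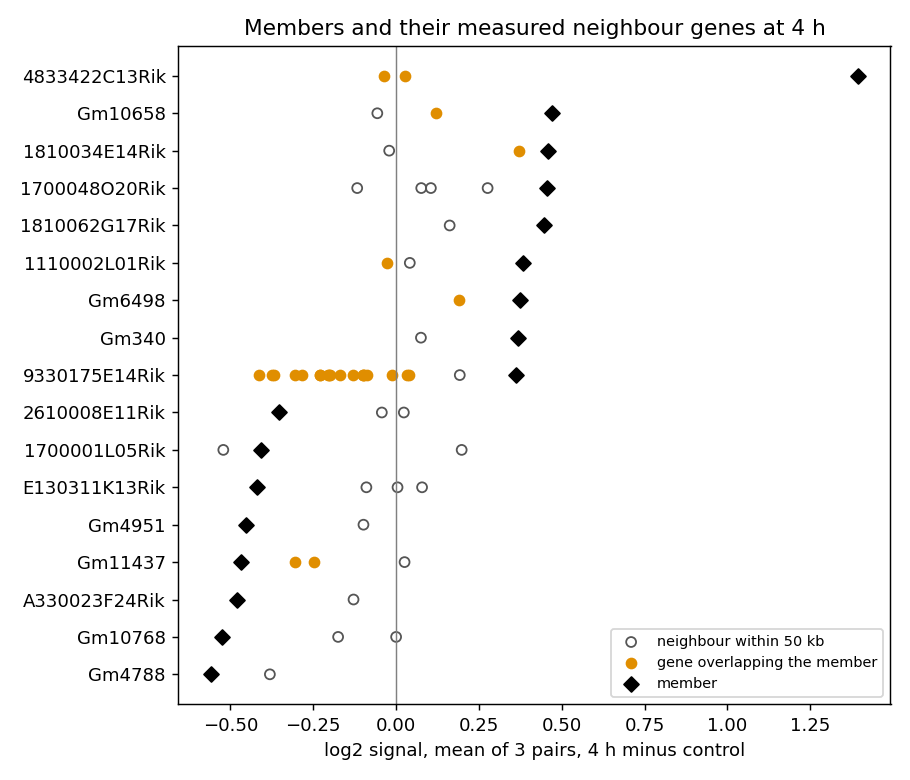
Mean difference in log2 signal between 4 h and control (horizontal axis, 3 pairs) for the 17 members with a measured neighbour (black diamonds) and for each probe set of a neighbour gene, filled where the gene overlaps the member and open where it lies within 50 kb. Both neighbours of 4833422C13Rik sit near 0, and those of 9330175E14Rik reach down to -0.41.

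Markers of other cell types were measured on the same arrays. The 9 measured hepatocyte markers were bright, with a summed log2 signal of 17.04 to 17.08 in untreated cells and 16.91 to 17.02 at 4 h, and 0 of them met the rule. Of 14 markers of Kupffer cells and macrophages, 8 met the rule as lower and 0 as higher, with a median difference of -0.45 against 0.02 over all probe sets. Their summed log2 signal was 13.58 to 13.77 in untreated cells and 13.20 to 13.47 at 4 h, which did not overlap. The sum was taken on the linear scale, so the brightest markers, Cd14 (-0.34) and Cd68 (-0.24), weigh most. Neither of them met the rule. Of the 14, 6 had mean levels above the median probe set (7.23), among them Csf1r (7.40), Cd68 (11.85) and Cd14 (12.49), and 8 below it, among them the Kupffer cell marker Clec4f (6.49) and Cd5l (5.98). C1qb (8.91) and Fcer1g (8.21) were among the bright markers that met the rule as lower, at -0.74 and -0.85. An array gives no true zero, so a marker cannot be called absent. The part of these cells in the lower members was not tested, and in bulk samples fewer cells of a type and less RNA per cell cannot be told apart. Of the stellate cell, endothelial and bile duct markers, 0 to 1 per list met the rule in either direction. These were Dcn (-0.48) and Lyve1 (-0.37) as lower and the bile duct marker Sox9 (1.19) as higher. Of the 7 bile duct markers, 5 were measured, and 4 of these lay below the median level. The summed log2 signal of the 5 was 0.37, 1.29 and 1.08 higher at 4 h in replicates 1 to 3. Sox9, the brightest of them, weighs most in this sum. The other measured bile duct markers differed little at 4 h, by 0.15 (Krt7), 0.08 (Epcam), 0.03 (Krt19) and 0.03 (Cftr).

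TGF-β targets were measured for comparison. In a list of SMAD target and feedback genes, 23 of 25 were measured, 10 met the rule as higher and 1, Id2, as lower, against 1.57% and 3% of all probe sets with 1 symbol. The median difference of the list at 4 h was 0.21, against 0.02 over all probe sets. The higher ones included the inhibitory Smad7 (1.11), the corepressor Skil (1.31) and the matrix gene Ccn2 (1.96). 4833422C13Rik, at 1.39, lay within the range of the 10 targets that met the rule as higher. The other higher members stood at 0.36 to 0.47, and the lowest of those targets was Ski (0.43). The same size limit chose these targets and the members, so their positions are a description only. Listed targets that met the rule in neither direction stood at -0.20 (Klf10) to 0.22 (Id1). Between 20 min and 2 h, limma called 0 of the 23.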

How the data were processed

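The authors deposited log2 signals for 35556 probe sets of 12 arrays (Affymetrix Mouse Gene 1.0 ST, total RNA). The labels name Affymetrix Power Tools and RMA (versions not given in the sources used here), which correct for background, normalize between arrays and summarize the probes of a probe set. The study's own analysis used FARMS and ComBat, so the deposited values carry no stated batch adjustment. Array values hold no counts, and 3 arrays per group limit the precision. No column was without a sample (0).

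Probe sets were named through the probe table of the platform; 1621 with several symbols and 12146 outside the table were left out. Positions, biotypes, promoter windows and miRNAs are from RefSeq (GRCm38.p6); no genome was used. Members were chosen by the rule given above, with array values as deposited. All 19 members are named, with the 3 RIKEN or Gm probe sets on each side of the limit, and the 5 probe sets most like 4833422C13Rik. Members and lists were chosen with earlier results of these data known. The comparison of 2 h with 20 min was fitted in R 4.3.3 with limma 3.58.1 (lmFit and eBayes, residual degrees of freedom 2, prior 5.02) on these 6 arrays and adjusted over 21789 probe sets after Benjamini-Hochberg, and was tested on simulated data. Joins and motif searches used Python 3.11.15 and pandas 2.3.3, and plots matplotlib 3.10.9.

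Arrays of the same replicate number deviated together from their group means (correlation at least 0.555 in all 18 pairs of arrays), so replicate numbers were kept as a factor; the labels do not say what a number stands for. Of the arrays, 0 pairs were identical. Alternatives were quantile normalization, centring on the array median, leaving out each replicate, no replicate block, other size limits, probe sets with several symbols, averaged probe sets, all 12 arrays in the fit, a filter on dim probe sets, another prior and all deposited probe sets. Arrays of 1 h of treatment were not used here.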

Additional observations from a re-analysis of the deposited data

How the results depend on the processing

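The number of members depends on the rule. At a size limit of 0.50 in place of 0.35, 3 met it (1 higher, 4833422C13Rik, and 2 lower, Gm4788 and Gm10768), and at 0.30, 28, of which 18 were lower. Without the replicate block, asking that the 4 h and control arrays do not overlap, 8 met it, 5 higher and 3 lower. Leaving out a replicate gave 23 to 34 (10 to 19 higher, 12 to 19 lower), the most without replicate 1 (34) and replicate 3 (29), where only 2 pairs had to share a sign; 15 to 17 of the 19 members were among them. Quantile normalization kept 17 of the 19 members (8 higher and 9 lower met the rule). Centring on the array median kept 16, and 6 higher and 12 lower met the rule, against 9 and 10. The difference of 4833422C13Rik at 4 h was 1.33 to 1.49 without a replicate, 1.42 with quantile normalization and 1.38 with centring. Its step from 20 min to 2 h was 0.52 to 0.94 without a replicate, and the adjusted p of limma over all its alternatives was 0.305 to 1.00; with no replicate block the step was 0.67 and the adjusted p 1.00. Across all 10 alternatives limma called 0 members and 0 probe sets, with 0 members (no block) to 3 (without replicate 1 or 2) at an unadjusted p under 0.05, where all probe sets stood at 0.757%, 2.53% and 6.45% in the fits with no block, without replicate 1 and without replicate 2. The pairing changed no limma call, but the counts made by pairs depend on it. Not overlapping at 20 min and 2 h, in place of every pair, held for 1 higher and 0 lower members, against 4 and 1. Leaving out a replicate gave 2 to 3 lower members with every pair below, against 1 (2 without replicate 1, 3 without replicate 2 and 3 without replicate 3). The number of arrays limits what can be detected: with 3 pairs, the standard errors of the members' steps were 0.07 to 0.16.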

Other observations

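The offset of replicate 1 was unevenly spread over the members. A gap was counted where replicate 1 lay more than 1 above, or more than 1 below, the mean of replicates 2 and 3 in all 4 groups, a limit chosen after values had been seen. It was present in 227 of the 21789 probe sets with 1 symbol (1.04%), in 6 of the 1318 RIKEN and Gm probe sets (0.455%) and in 4 of the 19 members (21.1%), all of them lower at 4 h: 9030619P08Rik (mean gap -2.56), Gm21286 (2.23), Gm4951 (1.79) and Gm10768 (-1.72). The sign of the gap was mixed although all 4 had the same direction at 4 h. The other 2 RIKEN and Gm probe sets with the gap were Gm4952, which lay just outside the limit of the rule, and 1110032A03Rik. Of the 227 probe sets, 107 (47.1%) met the rule at 4 h, 10 as higher and 97 as lower, against 4.57% of all. The cause was not tested.

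4833422C13Rik had a gap of -0.57 in untreated cells, -0.68 at 20 min, -0.32 at 2 h and -0.39 at 4 h, so that the replicates lay apart by less than the difference at 4 h of 1.39.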
